A study of Mus musculus with 20 samples.

Results

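The genes described are 7 that encode subunits of RNA polymerase I (RPI) and Rrn3, its initiation factor. They are Polr1a, Polr1b, Polr1c, Polr1d, Polr1e, Cd3eap, Twistnb and Rrn3, 8 of the 19938 genes that the arrays measured with a probe set carrying a single gene symbol. A gene with several such probe sets was represented by the brightest on average, a choice that mattered only for Polr1d. The RNA came from mouse embryo fibroblasts of E14.5 embryos and was read on Affymetrix arrays. The cells were used as primary cultures (MEFs) or after immortalization by transfection of the SV40 T antigens (iMEFs). Each kind was used as Ubf fl/fl cells and as isogenic Ubf wt/wt cells, so that there were 4 lines, and all 4 carried Er-cre+/+, the tamoxifen-activated recombinase. Every line, controls included, received a 4 h pulse of 50 nM 4-hydroxytamoxifen (4-HT), and RNA was taken 0, 24, 48, 72 and 96 h post 4-HT. Each line and time has 1 array, 20 in all, and this number limits the precision, since no condition was repeated. The labels do not say whether an iMEF line was 1 clone or how many embryos gave each culture, and the 5 arrays of a line are repeated measures of that line, so p-values measure scatter between arrays and not between independent lines.

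RPI transcribes the ribosomal RNA genes in the nucleolus. Polr1a and Polr1b are its largest subunits and form the catalytic centre. Polr1c and Polr1d form an assembly platform that RNA polymerase III (RPIII) also uses. Polr1e and Cd3eap form a heterodimer on the enzyme's flank that takes part in initiation and elongation. Twistnb belongs to the stalk that Rrn3 contacts. Rrn3 binds the free enzyme, makes it competent to initiate and brings it to the promoter, where UBF and the selectivity factor SL1 (the TATA-binding protein and its associated Taf1 subunits) hold the template. In fibroblasts the activity of this system follows growth signals, which act on Rrn3 in particular.

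Promoter windows of 300 bases, which reach 50 bases past the annotated start, were taken from RefSeq (GRCm38.p6) for all 8 genes. The windows printed are those of the members that held a motif, since these include the pair with the highest r over the 20 arrays (Polr1e and Rrn3) and the gene that ran against them (Polr1c). The E-box CACGTG, a site of the Myc family, reads the same on both strands and was found in 2 of the 8 windows, against 7.15% of 32851 promoters. It lay 215 and 48 bases before the start of Rrn3, and 218 bases before and 20 bases after that of Cd3eap. The sequence CCGGAAGT (ACTTCCGG on the other strand), a site of the ETS family that was searched for only after the windows had been read, was found in 3 of 8, against 3.89% of all promoters. It lay 6 bases before the start of Rrn3, 24 bases after that of Polr1e and 42 bases before that of Polr1c. The motifs do not overlap each other, and capitals below mark them. A match describes the letters of the window and is not evidence of binding.
Rrn3, chr16:13780449-13780748, plus strand: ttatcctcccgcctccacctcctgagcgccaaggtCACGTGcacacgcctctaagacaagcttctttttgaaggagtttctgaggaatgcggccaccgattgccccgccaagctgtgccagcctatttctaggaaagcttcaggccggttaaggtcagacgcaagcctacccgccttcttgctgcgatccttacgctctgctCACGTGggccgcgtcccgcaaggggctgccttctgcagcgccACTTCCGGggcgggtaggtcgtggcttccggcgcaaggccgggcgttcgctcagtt
Cd3eap, chr7:19359434-19359733, minus strand: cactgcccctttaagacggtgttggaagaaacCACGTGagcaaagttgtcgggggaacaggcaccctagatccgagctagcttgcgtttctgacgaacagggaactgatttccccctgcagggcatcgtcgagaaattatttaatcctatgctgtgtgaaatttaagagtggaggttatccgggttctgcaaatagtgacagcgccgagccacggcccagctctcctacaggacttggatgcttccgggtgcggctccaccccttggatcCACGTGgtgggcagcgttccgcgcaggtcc
Polr1e, chr4:45018359-45018658, plus strand: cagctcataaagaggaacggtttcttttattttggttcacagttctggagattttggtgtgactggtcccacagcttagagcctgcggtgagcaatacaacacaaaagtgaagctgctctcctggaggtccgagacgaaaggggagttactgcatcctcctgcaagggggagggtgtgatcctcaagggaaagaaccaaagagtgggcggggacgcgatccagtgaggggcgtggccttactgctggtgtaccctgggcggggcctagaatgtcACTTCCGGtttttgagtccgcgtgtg
Polr1c, chr17:46247996-46248295, minus strand: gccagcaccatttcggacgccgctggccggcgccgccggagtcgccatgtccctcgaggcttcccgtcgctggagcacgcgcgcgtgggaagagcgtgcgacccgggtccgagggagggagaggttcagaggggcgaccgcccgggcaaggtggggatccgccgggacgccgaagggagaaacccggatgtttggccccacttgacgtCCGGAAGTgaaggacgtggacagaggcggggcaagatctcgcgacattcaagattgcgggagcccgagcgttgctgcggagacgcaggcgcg

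All 8 genes passed the filter on low values, which asked for a level over the 40th percentile of an array's probe sets on at least 2 arrays. For 7 of them the level lay at or above the 60th percentile on every array, up to 96.8 for Polr1c. Twistnb was the exception. It was under the 40th percentile on all 10 iMEF arrays and over it on 7 of 10 MEF arrays, so its values lay partly near the floor of the array and it passed through the MEFs alone. A gene kept in this way was selected to be lower in iMEFs, and Twistnb is therefore described without a test of that comparison and left out of its counts. Probe sets differ in their response, so levels were compared between arrays and not between genes.

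**Figure D1:**
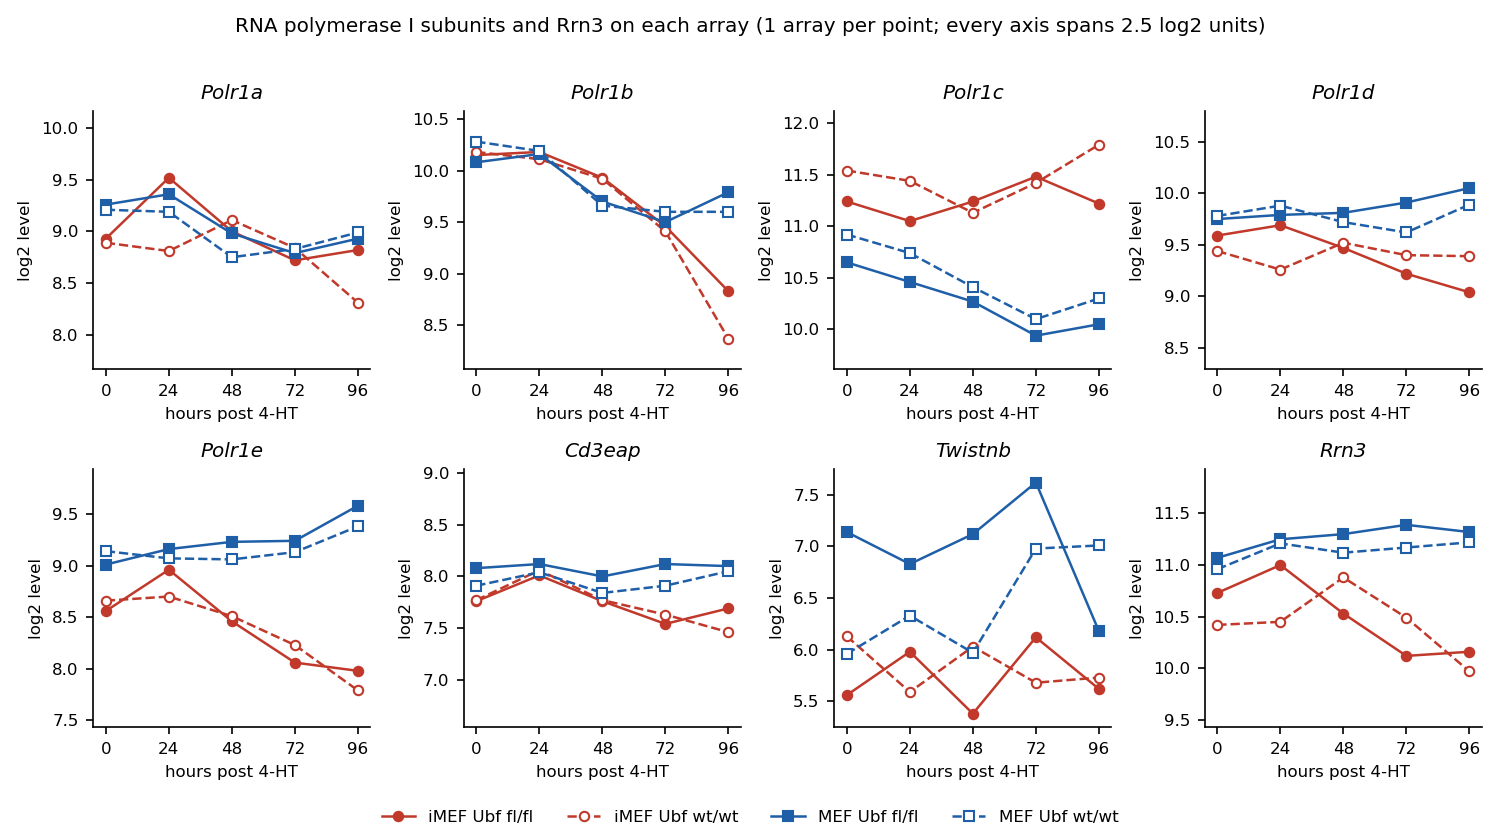
Log2 level (y axis) of each of the 8 genes against hours post 4-HT (x axis), 1 array per point, in Ubf fl/fl (filled) and Ubf wt/wt (open) iMEFs (circles) and MEFs (squares). Polr1c was higher on all iMEF arrays than on any MEF array and Polr1e was lower, while Polr1b was at 8.83 and 8.37 in the iMEFs at 96 h.

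The arrays of both cell types are described here before the comparison. The median level of the 15272 genes kept ran from 7.96 to 8.16 on iMEF arrays and from 8.18 to 8.34 on MEF arrays. The mean r of an array with the other arrays of its line ran from 0.9549 to 0.9852 in iMEFs and from 0.9573 to 0.9829 in MEFs. It was lowest for the Ubf fl/fl iMEF array at 24 h and the Ubf fl/fl MEF array at 96 h. The counts of markers here stand beside 45.1% of all genes called higher in iMEFs and 35.5% called lower. Fibroblast markers were present in both, but 12 of 12 were lower in iMEFs, with a median difference of -1.21 on the log2 scale. They ran from Vim at -0.15 to Dcn at -5.71 (11 of 12 were called, without Vim, when the arrays were scaled to an equal median). Of the 12, Lum had passed the filter through the MEFs alone, and without it 11 of 11 were lower, with a median of -0.91. Of 15 macrophage markers, 14 were kept. The 11 of them that passed the filter through both cell types were all lower in iMEFs, with a median of -2.76, C1qb by 34.2-fold. The mean log2 level over the list ran from 6.11 to 6.55 on iMEF arrays and from 8.41 to 9.71 on MEF arrays. Of the 15 markers, 5 in Ubf fl/fl iMEFs and 4 in Ubf wt/wt iMEFs lay under the 40th percentile on every array of the line, against 0 and 1 in the MEFs, and 3 of the 14 kept (Lyz2, Adgre1 and Ptprc) had passed the filter through the MEFs alone. Of 14 proliferation genes, 13 were kept, and 10 of them were higher in iMEFs and none (0) lower, with a median of 1.04. The difference was larger at late times. The mean log2 level over the list was 10.92 (Ubf fl/fl) and 10.34 (Ubf wt/wt) in iMEFs against 10.56 and 10.38 in MEFs at 0 and 24 h, and 10.41 and 10.36 against 8.41 and 8.97 from 48 h on. The part of these differences in the results below was not tested, and in such bulk samples fewer cells of a type and less RNA per cell cannot be told apart.

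The comparison of levels in iMEFs and MEFs asked whether the RPI genes differ between immortalized and primary fibroblasts. Polr1c was higher in iMEFs by 0.97 ± 0.11 (SE) on the log2 scale, or 1.96-fold. Polr1e (1.75-fold), Rrn3 (1.66-fold), Cd3eap and, by 1 of its probe sets, Polr1d were lower. For the catalytic subunits Polr1a and Polr1b the test was not passed. The test was made in limma over the 10 pairs of arrays of the same genotype and time with Benjamini-Hochberg adjustment over all genes. It called 5 of the 7 members other than Twistnb, but it called 80.6% of all 15272 genes, 45.1% higher and 35.5% lower in iMEFs, so being called is not a property that sets these genes apart. The median difference was -0.27 over these 7, -0.35 with Twistnb and 0.12 over all genes. With the arrays scaled to an equal median or by quantiles, 4 of the 7 were called. Over all genes, 7973 of 15272 were then called higher and 4750 lower at equal medians, and 7693 of 15249 higher and 4838 lower by quantiles. The members' median was -0.15 and -0.040 over the 7 and -0.22 and -0.14 with Twistnb.

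The platform subunits went in opposite directions with the probe sets used. The level of Polr1c ran from 11.05 through a median of 11.33 to 11.79 on the 10 iMEF arrays, and from 9.94 through 10.36 to 10.92 on the 10 MEF arrays. The groups did not overlap, and Polr1c was higher in the iMEF array of 10 of 10 pairs, by 0.59 to 1.54 (limma adjusted p = 4.48e-06). Its line means stood in the order iMEF Ubf wt/wt (11.46 ± 0.24, SD over 5 times), iMEF Ubf fl/fl (11.25 ± 0.15), MEF Ubf wt/wt (10.49 ± 0.33) and MEF Ubf fl/fl (10.27 ± 0.29). The floxed minus wild-type difference at the 5 times was between -0.28 and -0.14 in MEFs, negative at each, and between -0.57 and 0.12 in iMEFs. All 10 differences between cell types were larger than these. Polr1d ran from 9.04 through 9.42 to 9.69 in iMEFs and from 9.62 through 9.80 to 10.05 in MEFs. The only overlap was between the Ubf fl/fl iMEF array at 24 h and the Ubf wt/wt MEF array at 72 h. Its difference was -0.42 ± 0.09, negative in 10 of 10 pairs (limma adjusted p = 0.000916).

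Polr1d had a further probe set, and it gave another answer. Over it, the difference between iMEFs and MEFs was 0.016 ± 0.07 (95% interval -0.13 to 0.17, limma adjusted p = 0.84), and r between the probe sets was 0.141 over the 20 arrays. The probe set used is listed with the RefSeq accessions of both annotated Polr1d transcripts and the other with only 1 of them, so that the lower level of Polr1d in iMEFs holds for the probe set and not for the gene as a whole. Which exons each probe set covers is not given in the sources used here.

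**Figure D2:**
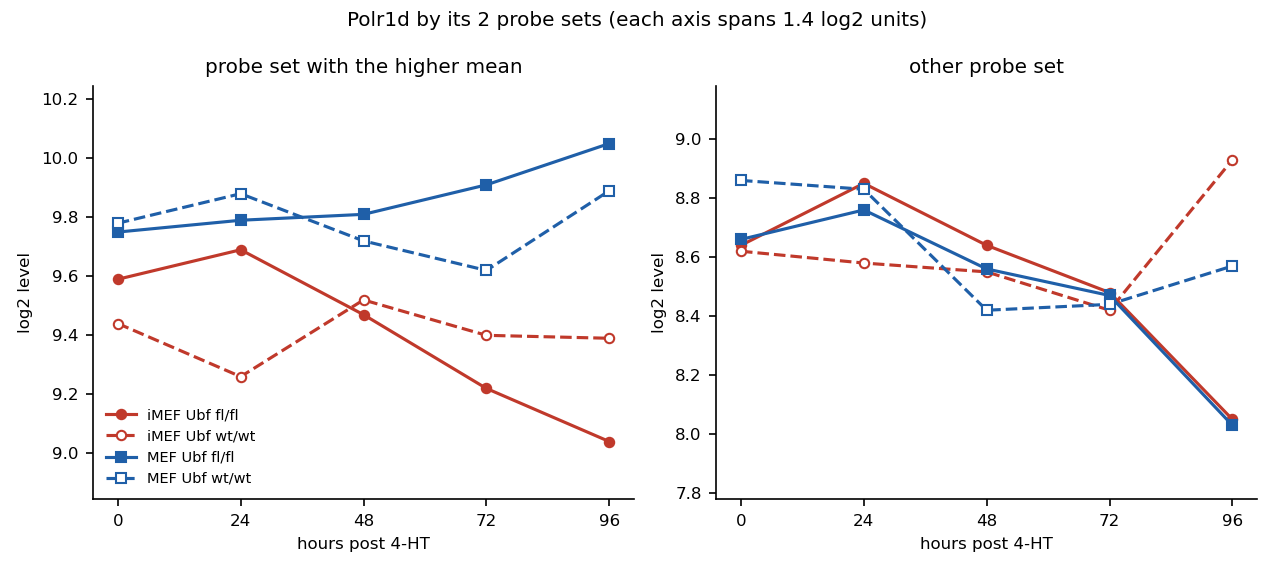
Log2 level (y axis) of the 2 probe sets of Polr1d against hours post 4-HT (x axis), 1 array per point, with lines and symbols for the 4 lines. iMEF arrays lie below nearly all MEF arrays in the left panel and among them in the right panel, where both Ubf fl/fl arrays at 96 h are the lowest.

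The heterodimer subunits were both lower in iMEFs, by different amounts. Polr1e ran from 7.79 through 8.49 to 8.96 on iMEF arrays and from 9.01 through 9.15 to 9.58 on MEF arrays, without overlap. The difference was -0.81 ± 0.14 and negative in 10 of 10 pairs (limma adjusted p = 0.000157). Polr1e and Polr1c were the 2 of the 7 members other than Twistnb whose groups did not overlap, against 25.6% of all genes. Cd3eap ran from 7.46 through 7.76 to 8.06 in iMEFs and from 7.84 through 8.05 to 8.12 in MEFs, and the groups overlapped because both iMEF arrays at 24 h reached 8.01 or more. Its difference of -0.27 ± 0.08, negative in 9 of 10 pairs, passed the test (limma adjusted p = 0.00433), but it shrank to -0.15 and -0.040 and no longer passed when the arrays were scaled to an equal median or by quantiles. Those scalings moved the median of all genes from 0.12 to 0.24 and 0.18, and the share of called genes that were higher in iMEFs from 55.9% to 62.7% and 61.4%.

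Rrn3 and Twistnb meet in the initiating enzyme, and Rrn3 was lower in iMEFs. Rrn3 ran from 9.97 through 10.47 to 11.00 in iMEFs and from 10.96 through 11.21 to 11.39 in MEFs. A single iMEF array, Ubf fl/fl at 24 h, reached above the lowest MEF array. The difference was -0.73 ± 0.12, negative in 10 of 10 pairs (limma adjusted p = 7.31e-05). The line means of Rrn3 stood in the order MEF Ubf fl/fl (11.27 ± 0.12, SD over 5 times), MEF Ubf wt/wt (11.14 ± 0.11), iMEF Ubf fl/fl (10.51 ± 0.38) and iMEF Ubf wt/wt (10.44 ± 0.32), and the iMEF lines, whose means differed by less than either SD over the 5 times, had the larger spread. Twistnb ran from 5.38 through 5.71 to 6.13 in iMEFs and from 5.96 through 6.90 to 7.62 in MEFs. Its difference was -0.93 ± 0.18 and negative in 8 of 10 pairs, and the pairs ran against it in Ubf wt/wt cells at 0 and 48 h. With every iMEF array under the 40th percentile, this value is a description of uncertain size.

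The catalytic subunits did not pass. Polr1a ran from 8.31 through 8.86 to 9.52 in iMEFs and from 8.75 through 8.98 to 9.36 in MEFs, with a difference of -0.13 ± 0.09 (95% interval -0.34 to 0.07, limma adjusted p = 0.199). Polr1b ran from 8.37 through 9.92 to 10.18 and from 9.50 through 9.74 to 10.28, with a difference of -0.20 ± 0.14 (95% interval -0.50 to 0.10, limma adjusted p = 0.197). For both genes the groups overlapped widely and 6 of 10 pairs were lower in iMEFs. In Polr1b the pairs at 96 h stood apart, at -0.96 (Ubf fl/fl) and -1.22 (Ubf wt/wt), and without that time the difference was 0.023.

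**Figure D3:**
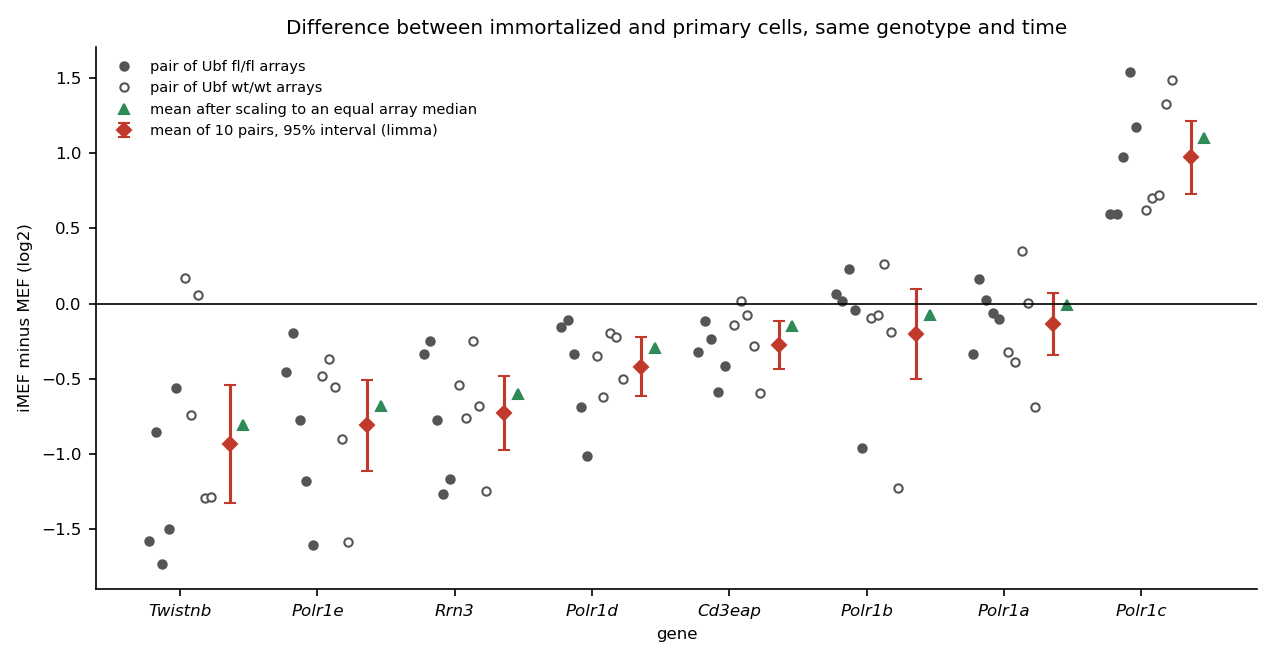
Log2 difference between iMEF and MEF arrays of the same genotype and time (y axis) for each gene (x axis). Grey points are the 10 pairs, red diamonds their mean with its 95% interval from limma and green triangles the mean after scaling to an equal array median. All 10 pairs lie above 0 for Polr1c and below 0 for Polr1e, Rrn3 and Polr1d. Twistnb passed the filter through the MEFs alone, and its interval is not used as a test.

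Both genotypes were then taken alone. Of the 7 members other than Twistnb, 5 were called in the Ubf fl/fl lines (67% of all genes) and 4 in the Ubf wt/wt lines (73%). The difference for Polr1c was 0.97 in either genotype, for Polr1e -0.84 and -0.78, and for Rrn3 -0.76 and -0.70. Cd3eap was called only in the Ubf fl/fl lines, at -0.33 against -0.22, and the difference between the genotypes was itself -0.12 ± 0.15 (limma adjusted p = 0.931). For Twistnb the genotypes gave -1.24 and -0.62, differing by -0.63 ± 0.33, without a test. In limma, 0 of the 7 other members differed between the genotypes in the size of the difference between cell types, against 2.34% of all genes. At an unadjusted p under 0.05, 0 of these 7 did so, against 1580 of the 15272 genes. With 1 line for each genotype and cell type, immortalization and the history of a line cannot be told apart.

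Pairs of arrays of either genotype differed more at 96 h than at 0 h for Polr1e, Rrn3, Polr1c, Polr1b and Cd3eap. So did those of Polr1d with the probe set used. For Polr1a and Twistnb this held in Ubf wt/wt pairs alone. No change of the difference with time passed the test. Polr1e differed by -0.45 (Ubf fl/fl) and -0.48 (Ubf wt/wt) at 0 h and by -1.60 and -1.59 at 96 h. Rrn3 differed by -0.34 and -0.54 at 0 h and by -1.17 and -1.25 at 96 h. Polr1c differed by 0.59 and 0.62 at 0 h and by 1.17 and 1.48 at 96 h. Cells at 0 h already differed in the same direction for these 3 genes. Polr1b differed by 0.07 (Ubf fl/fl) and -0.09 (Ubf wt/wt) at 0 h and by -0.96 and -1.22 at 96 h. From 0 and 24 h to 48, 72 and 96 h the difference moved by -0.72 ± 0.21 for Polr1e (limma adjusted p = 0.142), by 0.57 ± 0.17 for Polr1c (limma adjusted p = 0.149) and by -0.42 ± 0.21 for Rrn3 (limma adjusted p = 0.428). None (0) of the 7 members other than Twistnb passed, against 1.81% of all genes. An unadjusted p under 0.05 was found for 2 of these 7, against 1972 of the 15272 genes. Of 13 proliferation genes 8 passed in the same test, all 8 with a larger iMEF minus MEF difference late, and the median change was 1.54. Their part in the values of the members was not tested.

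Time in culture was then compared within each cell type, as the mean of 48, 72 and 96 h minus that of 0 and 24 h over both genotypes. In iMEFs Polr1b had the lowest value, and in MEFs Polr1c fell. In Ubf fl/fl iMEFs Polr1b was at 10.15, 10.18, 9.93, 9.46 and 8.83 at the 5 times, and in Ubf wt/wt iMEFs at 10.18, 10.11, 9.92, 9.41 and 8.37. The levels at 96 h were the lowest in both lines, by 1.32 and 1.81 below those at 0 h. In MEFs Polr1b was at 10.08, 10.16, 9.70, 9.50 and 9.79 (Ubf fl/fl) and at 10.28, 10.19, 9.66, 9.60 and 9.60 (Ubf wt/wt), so the lower level from 48 h on was there too but did not continue to 96 h. The late values of Polr1b were -0.83 ± 0.23 in iMEFs (limma adjusted p = 0.0625) and -0.54 ± 0.23 in MEFs (limma adjusted p = 0.141), neither past the threshold.

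In iMEFs, 0 of 8 members passed the test of time in limma, against 2.17% of all genes. Of the 8, 4 had an unadjusted p under 0.05, against 2874 of the 15272 genes. A negative value was found for 7 of 8, against 50.3% of all genes, with a median of -0.25 against -0.0013. Polr1e lay just outside the threshold at -0.55 ± 0.14 (limma adjusted p = 0.0501). Its level was 8.56, 8.96, 8.46, 8.06 and 7.98 in Ubf fl/fl iMEFs and 8.66, 8.70, 8.51, 8.23 and 7.79 in Ubf wt/wt iMEFs, lowest at 72 and 96 h in both. Without the 48 h arrays Polr1b, Polr1e, Cd3eap and Rrn3 passed, 4 of 8, while the calls over all genes rose from 331 to 2359. The exception in sign was Polr1c, at 0.06 ± 0.12. In the same cells 1 of 13 proliferation genes was lower and none (0) higher.

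In MEFs, 1 of 8 members passed, against 12.8% of all genes, 7.18% lower. This was Polr1c, at 10.65, 10.46, 10.27, 9.94 and 10.05 in Ubf fl/fl MEFs and 10.92, 10.74, 10.41, 10.10 and 10.30 in Ubf wt/wt MEFs. The early and late arrays did not overlap within either line, and the change was -0.52 ± 0.12 (limma adjusted p = 0.00796). The call was lost at -0.47 when the 0 h array of either MEF line was left out. Polr1a (-0.38 ± 0.14, limma adjusted p = 0.0837) and Polr1b had negative values as well, and Polr1d, Polr1e, Twistnb and Rrn3 had positive ones between 0.03 and 0.25 that did not pass. Proliferation genes fell in the same arrays, 13 of 13, with a median of -1.75, and of 12 nucleolar factors and Myc 5 fell and none (0) rose. Their part in the change of Polr1c was not tested.

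Members varied together in different ways in the different cells. Over the 20 arrays, r was 0.938 between Polr1e and Rrn3, 0.91 between Polr1d and Rrn3, and -0.906 between Polr1c and Rrn3. These arrays share 4 lines and 5 times, so r holds in part the difference between cell types. With each line's mean subtracted, r over the 20 arrays was 0.796 between Polr1e and Rrn3, 0.714 between Polr1d and Rrn3, and -0.636 between Polr1c and Rrn3. It was 0.798 between Polr1e and Cd3eap. Within the 10 MEF arrays so centred, Polr1c followed Polr1a (r = 0.861) and Polr1b (r = 0.917). Within the 10 iMEF arrays it ran against them (r = -0.866 and -0.556). Polr1a and Polr1b followed each other in both (r = 0.914 in MEFs and 0.739 in iMEFs). These values describe arrays that share a time course and carry no test.

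The genes whose levels were most like the mean of the 8 members over the 20 arrays were Clns1a (r = 0.981), Tsn (r = 0.977), Erh (r = 0.971), Timm23 (r = 0.968), Rtca (r = 0.963), Prep and Tmem69 (r = 0.959 each), Rbm45 (r = 0.958), and Gcsh and Pa2g4 (r = 0.957 each). With the mean of each line subtracted, Clns1a (r = 0.972) and Tsn (r = 0.964) again led, and Dynll1 and Cct3 entered the first 10 in place of Tmem69 and Rbm45.

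The floxed gene itself was examined before the effect of Ubf loss. Ubtf, which encodes UBF, was at 10.43, 10.62, 10.42, 10.24 and 10.01 in Ubf fl/fl iMEFs and at 10.41, 10.45, 10.33, 10.17 and 9.49 in the Ubf wt/wt iMEFs. In MEFs it was between 10.53 and 10.65 (Ubf fl/fl) and between 10.22 and 10.75 (Ubf wt/wt). From 48 h on the floxed lines were not lower than their controls, and the late effect defined below was 0.13 ± 0.18 in iMEFs and 0.36 ± 0.18 in MEFs (limma adjusted p = 0.703 and 0.718). The sources used here do not place the probes against the deleted exons, so this level does not check the genotype labels.

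The question of Ubf loss was whether the RPI genes moved in floxed cells beyond their controls. The late effect subtracts wild-type from floxed cells and takes the mean of this over 48, 72 and 96 h less its mean over 0 and 24 h. The early times include 24 h, after floxed cells had received 4-HT, and so are no baseline of intact cells alone. In iMEFs they also include the floxed array with the lowest mean r with its own line. In limma 0 of 8 members passed in iMEFs, where 0.223% of all genes did. An unadjusted p under 0.05 was reached by 2 of 8, against 3370 of the 15272 genes. In MEFs 0 of 8 passed, as did 0% of all genes, and 0 of 8 were under that unadjusted value, against 1052 of the 15272. The members' median was -0.05 in iMEFs and 0.09 in MEFs, against -0.04 and 0.06 over all genes. The median standard error over all genes was 0.207, and an effect of about that size was not detectable in this design. Larger effects could fail too, as Rrn3 in iMEFs did at -0.61 (limma adjusted p = 0.118). The absence of calls therefore does not exclude effects of that larger size.

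The members with an unadjusted p under 0.05 in iMEFs were Rrn3 and Polr1d. Relative to 0 h, the floxed minus wild-type difference of Rrn3 in iMEFs was 0.24 at 24 h, -0.66 at 48 h, -0.68 at 72 h and -0.12 at 96 h. It thus lay lowest at 48 and 72 h and was near its starting value at 96 h. The level of Rrn3 moved from 10.73 at 0 h to 10.53 at 48 h in floxed iMEFs, and from 10.42 to 10.88 in wild-type iMEFs. By 48 h the wild-type level had therefore risen by more than the floxed level had fallen. At 72 h Rrn3 was at 10.12 (floxed) and 10.49 (wild-type), so that the floxed level had moved more. At 96 h it was at 10.16 and 9.97. The late effect was -0.61 ± 0.19 (limma adjusted p = 0.118), and it passed without the 96 h arrays, at -0.79 (limma adjusted p = 0.0233). Without those arrays 1663 of all genes passed, against 34 with them. In MEFs the same difference stayed between -0.07 and 0.11 at the 4 times. The effect in iMEFs minus that in MEFs was -0.70 ± 0.27 and did not pass (limma adjusted p = 0.637). In that test 0% of all genes were called, and 1136 of the 15272 had an unadjusted p under 0.05.

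Polr1d showed a steady course with the probe set used and another course with the other. In iMEFs its floxed minus wild-type difference, relative to 0 h, was 0.27, -0.21, -0.34 and -0.51 at 24, 48, 72 and 96 h. In MEFs it was -0.05, 0.12, 0.32 and 0.19. The late effect in iMEFs was -0.49 ± 0.16 (limma adjusted p = 0.133). With the other probe set the iMEF values were 0.25, 0.07, 0.04 and -0.91, and the MEF values 0.14, 0.34, 0.23 and -0.33. That probe set was thus lower in floxed cells at 96 h in both cell types, and its late effect in iMEFs was -0.39 ± 0.30 (limma adjusted p = 0.452).

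Among the other members, Polr1b lay above its value at 0 h at all 4 later times in both cell types. It was between 0.05 and 0.50 in iMEFs and between 0.10 and 0.39 in MEFs, highest at 96 h in both, when it stood at 8.83 in floxed and 8.37 in wild-type iMEFs. Its late effect was 0.16 in either cell type and passed in neither (± 0.18 in each, limma adjusted p = 0.63 and 0.786). Polr1a in iMEFs was at 0.68, -0.15, -0.16 and 0.47 relative to 0 h, high at 24 and 96 h. The value at 24 h rests on the floxed array least like the rest of its line. At that time 6 of 8 members were above 0 in iMEFs, against 50.1% of all genes. Polr1c stayed between -0.27 and 0.41 in iMEFs and between -0.02 and 0.13 in MEFs. Polr1e was between -0.07 and 0.36 in iMEFs and positive at all 4 times in MEFs, from 0.22 to 0.34. Cd3eap moved least, between -0.13 and 0.24 over both cell types. Twistnb ran from -0.07 to 1.01 in iMEFs and from -2.01 at 96 h to -0.03 in MEFs, the widest range of the 8 genes, with its iMEF levels near the floor of the array.

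**Figure D4:**
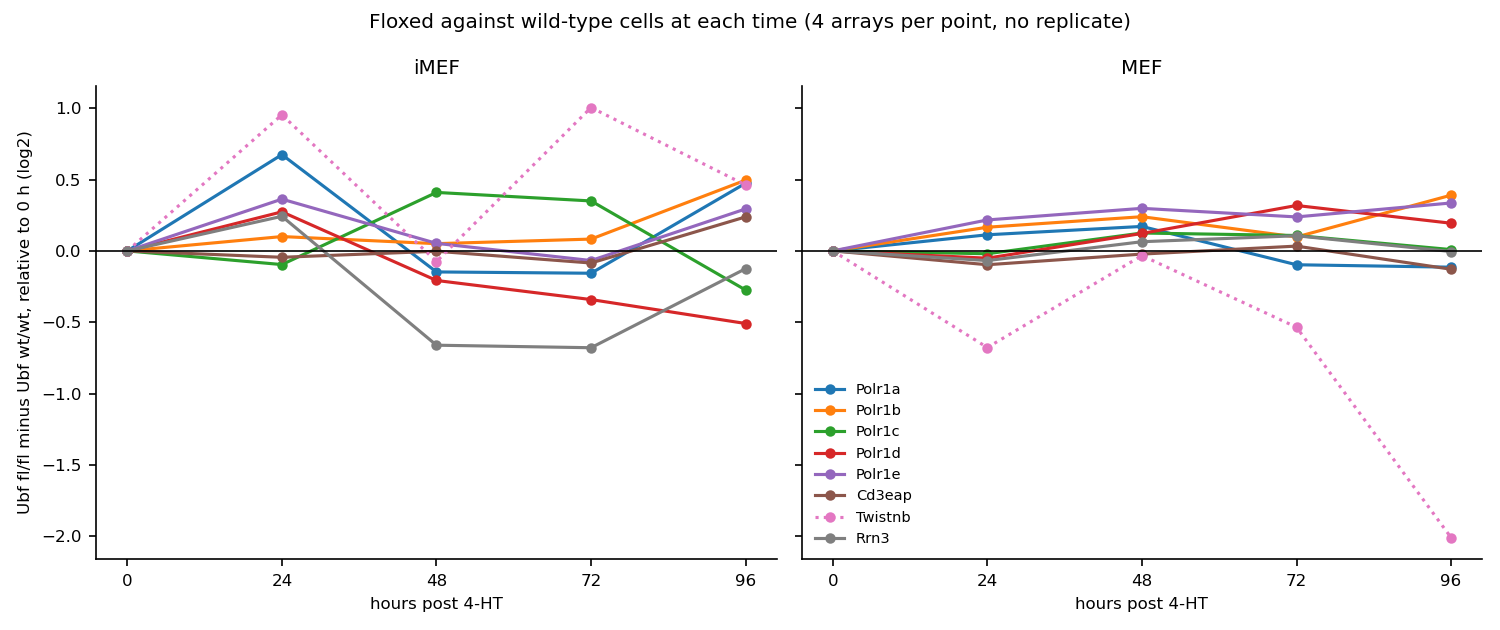
Floxed minus wild-type difference relative to 0 h (y axis, log2) against hours post 4-HT (x axis) for the 8 genes in iMEFs (left) and MEFs (right), 4 arrays per point and no replicate. Rrn3 lies at -0.66 and -0.68 at 48 and 72 h in iMEFs and near 0 in MEFs, and Twistnb (dotted) varies most.

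Other genes of the RPI system and of the sister polymerases were set beside the members in the comparison of iMEFs with MEFs, and share its arrays. Znrd1, the small RPI subunit that takes part in transcript cleavage, differed by 0.04 ± 0.09 and was not called, but it was called higher after scaling by quantiles, at 0.21 (limma adjusted p = 0.0304). Of 7 initiation and termination partners, 2 were higher and 4 lower in iMEFs. Taf1d (1.74, 3.33-fold) and Taf1c (0.52), both subunits of SL1, were higher, whereas their partners Taf1b (-0.89) and Taf1a (-0.65), the terminator protein Ttf1 (-0.66) and Ubtf (-0.26) were lower. The call for Ubtf was lost under either scaling, at -0.14 and -0.12. Tbp, the TATA-binding protein, was at -0.10 and not called. SL1 genes therefore lay on both sides.

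Of the 5 subunits that all 3 polymerases share, 3 were higher (Polr2e at 0.69, Polr2f at 0.49 and Polr2h at 0.26), Polr2l was lower (-0.37) and Polr2k was not called (0.21). Among 7 RPII subunits 4 were higher and 2 lower, from Polr2c at 0.89 to Polr2b, the second catalytic subunit, at -1.35. Of 10 RPIII subunits tested, 8 were lower and 1 higher, with a median of -0.63. The lower ones included Polr3f (-1.31), Polr3b (-1.17), Polr3k (-1.17) and Polr3g (-0.86), and the higher one was Polr3gl (0.63), the paralogue of Polr3g. Polr3g had passed the filter through the MEFs alone, and without it 7 of 9 were lower, with a median of -0.48. The medians were thus below that of all genes (0.12) for RPI and RPIII and above it for RPII (0.33) and the shared subunits (0.26). Against 45.1% of all genes called higher and 35.5% called lower, these are counts over a few genes. Scaled to an equal median or by quantiles, these medians kept their signs. They were -0.15 and -0.040 for the 7 members other than Twistnb, and -0.22 and -0.14 with it. For RPIII they were -0.50 and -0.39 with Polr3g included, and its removal was not repeated under the scalings. They were 0.46 and 0.43 for RPII, and 0.39 and 0.50 for the shared subunits.

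Genes that act around RPI in the nucleolus were also divided. Of 12 nucleolar factors and Myc, 3 were higher in iMEFs (Tcof1 at 0.86, Bop1 at 0.64 and Myc at 0.61) and 6 lower, the lowest being Npm1 at -1.92, Nop58 at -1.75, Ncl at -1.72 and Dkc1 at -1.44. Nop58 had passed the filter through the MEFs alone. The median of the list changed sign with the scaling of the arrays, from -0.16 to 0.03 by quantiles. In the late effect of Ubf loss, none (0) of the genes of these lists passed.

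**Figure D5:**
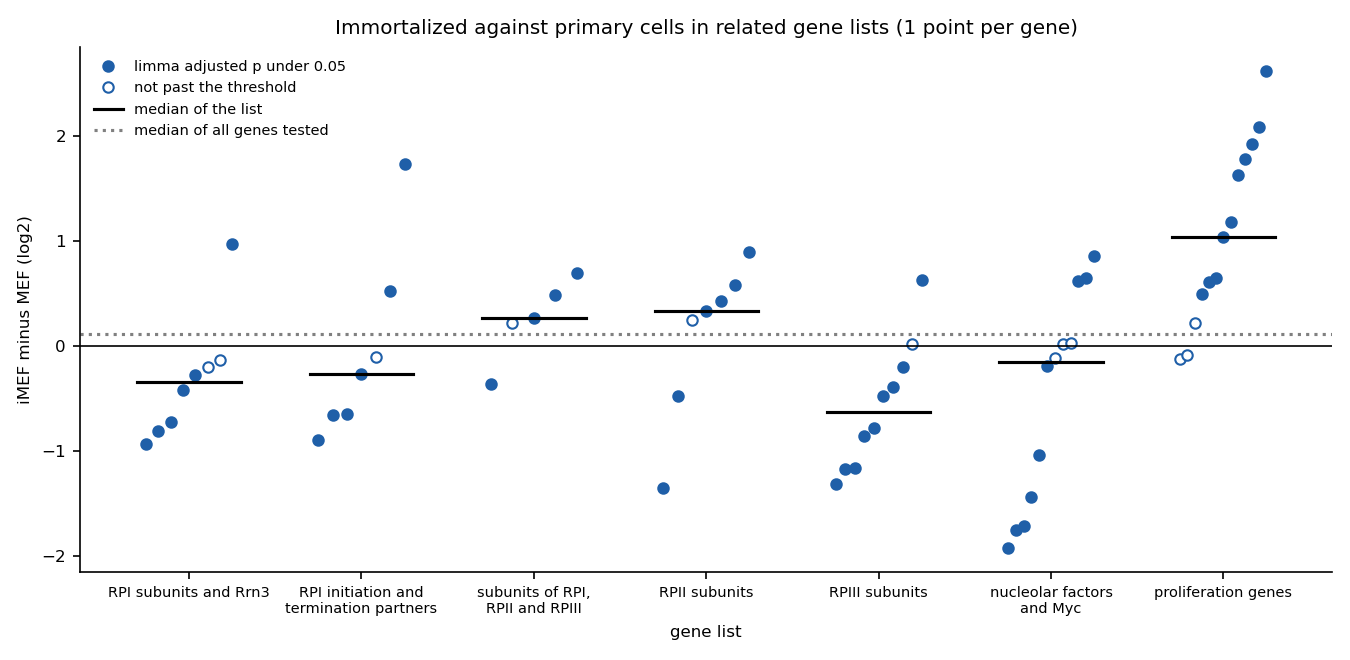
Log2 difference between iMEFs and MEFs (y axis) for genes of 7 lists (x axis), 1 point per gene, filled where limma's adjusted p was under 0.05. Bars are list medians and the dotted line the median of all genes, 0.12. The RPI (Twistnb included) and RPIII (Polr3g included) medians, -0.35 and -0.63, lie below it and that of proliferation genes, 1.04, above. Filled points include Twistnb, Polr3g and Nop58, which passed the filter through the MEFs alone.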

How the data were processed

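The authors hybridized RNA from 20 cultures of mouse embryo fibroblasts to Affymetrix arrays, 1 array for each of 4 lines and 5 times. RNA was extracted by acid phenol and purified on silica columns. The authors normalized the arrays by RMA with Affymetrix Power Tools 1.14.4 and deposited the resulting log2 levels of every probe set. The paper's methods do not say whether iMEF and MEF arrays were normalized in the same run. The array design named in the methods (Mouse Gene 2.0 ST) is not the one whose annotation was used here (Mouse Gene 1.0 ST). RMA sets the arrays of a run to a common distribution, so a shift of total RNA per cell is not seen. The genome build used upstream is not given in the sources used here.

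The annotation gives a single symbol for 21789 of 35556 probe sets, several symbols for 1621, and does not list 12146. Gene identifiers of 21698 were found in the RefSeq table. For each of 19938 genes the brightest probe set, by its mean, stood for the gene. A gene was kept if it exceeded its array's 40th percentile on 2 or more arrays, which left 15272. No member shared its values with another probe set (0).

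Tests were made in limma 3.58.1 (R 4.3.3) on all genes kept, with Benjamini-Hochberg adjustment over all of them and a threshold of 0.05. iMEF and MEF arrays were compared in 10 blocks of genotype and time. The late effect of Ubf loss was fitted with terms for line, time within cell type and genotype by late time, and the change with time with terms for line and late time within line. Comparisons of iMEFs with MEFs share the arrays of the other comparisons. The comparison of iMEFs with MEFs was checked on simulated arrays. So were the late effect of Ubf loss and the change with time in each cell type. The other tests were not. The simulated noise was independent between arrays, so that repeated measures of a line were not part of this check. Alternatives were other scalings, filters, probe set summaries and empirical Bayes settings, single times or genotypes left out, 24 h counted as late, cell types fitted alone and the line as a random block. Single arrays left out and the other probe set of Polr1d were added after the data were seen. Contrasts at single times have 1 array per condition and no test.

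All 8 members are named. Of the other lists, up to 4 genes past the threshold in a comparison are named, and any gene of the RPI partners and shared subunits, with the 10 genes most like the members' mean. Vim and Dcn, the limits of their list, were named after their values were seen. The members, lists and tests were chosen with earlier results of these data known. Ccnb1 was not analysed here. Promoters were searched and figures drawn in Python 3.11.15 with matplotlib 3.10.9.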

Additional observations from a re-analysis of the deposited data

How the results depend on the processing

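Of the differences between iMEFs and MEFs, those of Polr1c, Polr1e and Rrn3 passed the test under all 15 alternatives tried. Twistnb, which passed the filter through the MEFs alone, was removed by the filter at the 60th percentile. The call of Polr1d was lost with its other probe set (0.016) and that of Cd3eap under both scalings and in Ubf wt/wt lines alone (-0.22). With the line as a random block the estimated correlation was -0.0429. That fit also held genotype and cell type as fixed terms, which leaves little in 4 lines to estimate a correlation from. It therefore does not settle the effect of repeated measures of a line. Leaving Twistnb out of the count, the same 5 of 7 members were called in that fit and with any 1 array left out. Over all genes the 12302 calls ran from 9317 to 15325 under the alternatives, whose filters tested different numbers of genes. With single arrays left out they ran from 11837 to 12521. Values that were not called changed sign for Polr1a by quantile scaling (0.097) and for Polr1b without 96 h (0.023). Limits of precision are signal over background for Twistnb and 1 array per condition for the rest. iMEF and MEF arrays were paired by genotype and time, except in the fit with the line as a random block, which had separate terms for genotype and time. The labels give no replicate numbers, so that a block by replicate was not fitted.

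Members called in the late effect of Ubf loss were 0 and became 1 in iMEFs without 96 h. Over all genes the 34 calls in iMEFs became 102 (quantile scaling), 92 (trend and robust settings), 7 (without 0 h), 0 (without 24 h or 72 h, or with 24 h as late), 14 (iMEFs alone) and 1663 (without 96 h), and the 0 in MEFs became 11 without 48 h. With single arrays left out these counts ran from 0 to 998 in iMEFs and from 0 to 81 in MEFs. None of the following late effects passed the test, but they changed sign. In iMEFs these were Polr1a without 24 h (0.057) or with it as late (0.21), Polr1e by quantiles (0.14), without 24 h (0.093) or with it as late (0.16), Cd3eap without 96 h (-0.021), and Twistnb at equal medians (0.014), without 24 h (0.46) or 48 h (0.26) or with 24 h as late (0.59). In MEFs these were Polr1a with 24 h as late (0.018), Cd3eap without 24 h (-0.039) or 72 h (-0.027) or with 24 h as late (-0.054), and Twistnb without 96 h (0.055). With single arrays left out the iMEF values ran from -0.62 to 0.057 (Polr1a), -0.27 to 0.093 (Polr1e), -0.021 to 0.14 (Cd3eap) and -0.49 to 0.46 (Twistnb), and the MEF values from -0.039 to 0.058 (Cd3eap) and -0.93 to 0.055 (Twistnb).

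Members called for time in iMEFs were 0, and became 1 at equal medians and with the filter at the 60th percentile (Polr1e in both), 2 by quantiles (Polr1b and Polr1e) and 4 without 48 h. With single arrays left out they were 0 to 2. Polr1b and Polr1e passed without the 48 h array of either iMEF line, and Polr1e without the 0 h array of Ubf fl/fl iMEFs or the 96 h array of Ubf fl/fl MEFs. In MEFs the 1 member called, Polr1c, was lost (0) without 0, 24 or 72 h, with 24 h as late and in Ubf fl/fl or Ubf wt/wt lines alone. The count was 2 by quantiles and 3 without 96 h, and ran from 0 to 3 with single arrays left out, the 3 being Polr1a, Polr1b and Polr1c without the Ubf wt/wt iMEF array at 96 h. Over all genes the 331 calls in iMEFs became 56, 23, 2359 and 29 without 0, 24, 48 and 72 h, 21 and 53 in Ubf fl/fl and Ubf wt/wt lines alone and 0 with 24 h as late. The 1959 in MEFs became 510, 876 and 787 without 0, 24 and 72 h, 561 and 899 in the lines alone and 8 with 24 h as late. With single arrays left out they ran from 82 to 1448 and from 1066 to 2486. Values that were not called changed sign in iMEFs for Polr1c without 24 h (-0.012) or 96 h (-0.0025), in Ubf wt/wt lines alone (-0.045) and with 24 h as late (-0.045), and in Ubf wt/wt lines alone for Polr1d (0.092) and Rrn3 (0.012). In MEFs they did so for Polr1d with the mean of its probe sets (-0.17), without 0 h (-0.0030) or 96 h (-0.036) and in Ubf wt/wt lines alone (-0.085), for Cd3eap without 24 h (0.0087) or 48 h (0.0085) or with 24 h as late (0.028), and for Twistnb in Ubf fl/fl lines alone (-0.0098). With single arrays left out the iMEF values ran from -0.026 to 0.14 (Polr1c) and -0.19 to 0.083 (Twistnb), and that of Polr1d in MEFs from -0.0032 to 0.064. The cause of these changes was not tested.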
